A study of Mus musculus with 4 samples.

Results

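The oxidative phosphorylation subunits are the nuclear-encoded proteins of the respiratory chain (complexes I to IV) and of ATP synthase (complex V). Their transcripts were compared in livers of male C57BL/6J mice, wild type in genotype, on 1 of 2 diets: a normal one, or one lacking methionine and choline (MCD diet), which is widely used to model steatohepatitis, a fatty liver with inflammation. The members were taken by symbol from array rows that name exactly 1 gene: symbols starting with Nduf followed by a, b, c, s or v, the 4 Sdh genes, and symbols starting with Uqcr, Cox (subunits 5 to 8 here) and Atp5. This gave 87 of 22180 genes: 42 named after complex I, 4 of complex II, 8 of complex III, 15 of complex IV and 18 of complex V. Diets were given for 20 weeks from 6 weeks of age, and each diet was represented by 2 liver samples with 1 gene-level array each. The labels do not say whether a sample came from 1 animal or several, so the spread behind each p-value is that between these samples only. All groups shared the strain, sex and tissue.

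Complex I passes electrons from NADH, and complex II those from succinate, to ubiquinone. Complex III hands them on to cytochrome c and complex IV to oxygen, and complexes I, III and IV pump protons whose return through ATP synthase drives the making of ATP. Hepatocytes are rich in mitochondria and use this chain for fatty acid oxidation, the urea cycle and glucose synthesis.

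In MCD diet livers the signals of most subunits lay slightly below those in normal diet livers, and the few that passed the test were all lower. Of the 87 members 7 were called lower and 0 higher (limma adjusted p under 0.05 over all genes). They were Uqcr11 and Uqcrq of complex III, Atp5e and Atp5k of ATP synthase, Ndufa13 and Ndufv1 of complex I and Sdhd of complex II. Over all genes 9.98% were called, 3.62% lower and 6.37% higher. Among the brightest 25% of genes by mean signal, where 58 of the members lie, 18.0% were called, 9.59% lower and 8.44% higher, against 6 of those 58 members lower (10.3%) and 0 higher. The share of bright members called lower was close to that of bright genes in general, and the share called in either direction was below it. An unadjusted limma p under 0.05 was found for 26 of the 87 members, all lower. Over all 22180 genes it was found for 5362, of which 2303 were lower and 3059 higher. Among the brightest 25% it was found for 18 of 58 members, all lower, and for 2159 of 5545 genes (1033 lower and 1126 higher).

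The median log2 difference (MCD diet minus normal diet, used throughout) was -0.26 over the 87 members, a 1.20-fold lower signal, against -0.03 over all genes and 0.03 over the brightest 25%. A value below 0 was found for 74 members (85.1%), for 55.8% of all genes and for 46.8% of the brightest 25%. The 87 also include assembly factors, the paralog Ndufa4l2 and the pseudogenes Uqcrh-ps1 and Atp5c1-ps. Without these, 65 of 75 structural subunits lay below 0, with a median of -0.27 and 7 called lower. Both MCD diet arrays lay below both normal diet arrays for 59 members (67.8%), against 29.2% of all genes and 31.5% of the brightest 25%. The arrays lay the other way round for 3 members (25.0% of all genes) and overlapped for 25. Groups without overlap made up 54.2% of all genes in either direction. Most single differences were below the size that was called: the smallest difference called for any gene was 0.50, and 76 members differed by less.

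**Figure D1:**
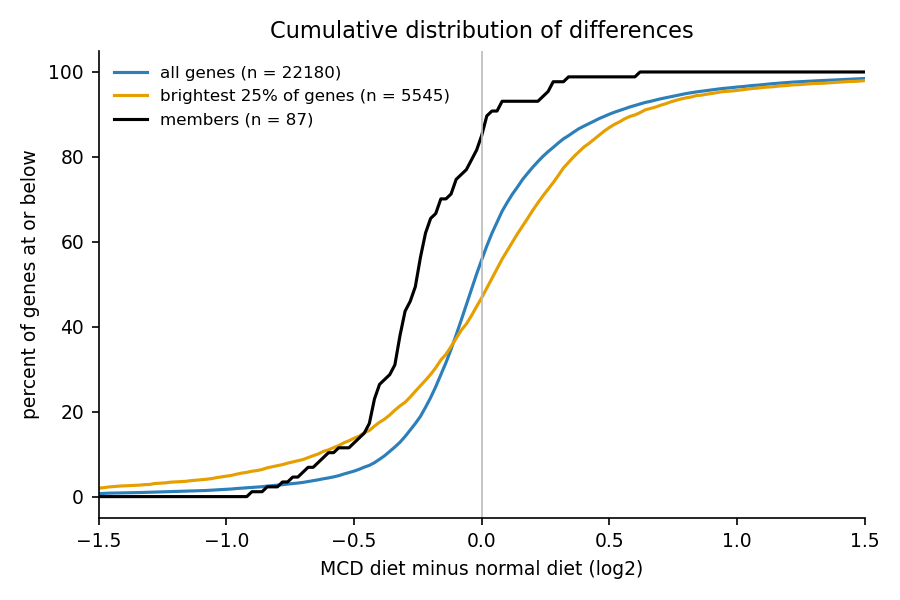
Percent of genes with a log2 difference (MCD diet minus normal diet) at or below the value on the horizontal axis, for the 87 members (black), all 22180 genes (blue) and the brightest 25% (orange). The black line lies to the left of the others around 0, with 85.1% of members below 0 against 55.8% of all genes, but it holds no large decreases (lowest -0.91).

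Fewer members were called with any 1 array left out. Each such fit leaves 1 sample in a diet and called fewer genes in general. A lost call therefore does not show the weight of the array left out. With the first normal diet array left out 2 members were called lower (Atp5e and Uqcr11), and with the second 1 (Uqcr11). Leaving out MCD diet replicate 1 gave 3 (Ndufa13, Ndufaf3 and Uqcr11), and leaving out MCD diet replicate 2 gave 2 (Atp5k and Uqcr11). Without MCD diet replicate 2, 1 member, Cox6a2, was called higher. Members tended to be lowest on MCD diet replicate 2, which was below MCD diet replicate 1 for 65 of 87 (74.7%), against 47.6% of all genes and 61.2% of the brightest 25%. Relative to the normal diet mean, the median over members was -0.21 on MCD diet replicate 1 and -0.30 on MCD diet replicate 2. Members below 0 numbered 69 under median centring of the arrays and 75 under quantile normalization.

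Signals of cell type markers moved with the diet as well. Of 13 measured hepatocyte markers, 12 had values below 0 and 1 (Apoa1, which fell by 0.50) was called. The median difference of the 13 was -0.22, against -0.26 over the 87 members. Their lowest differences were those of Ass1 (-1.61) and Pck1 (-1.49), both spread between the MCD diet arrays and not called. The summed linear signal of the 13 was 28010 and 28470 in normal diet samples against 23370 and 24560 in MCD diet samples. Each of the 13 was brighter than the median gene, and the signal of albumin, Alb, differed by -0.04 ± 0.12 (a log2 difference and its standard error, as at each ± here, with n = 2 arrays per diet). Of 11 macrophage markers 6 rose and 2 fell, with sums of 340.1 and 361.6 against 1490 and 2206. Of 10 stellate cell and myofibroblast markers 6 rose (717 and 877 against 1894 and 1895), and all 6 measured cholangiocyte markers rose (46.9 and 52.9 against 167 and 182). Of 6 endothelial markers 2 fell (615 and 671 against 445 and 452). Sums follow the brightest genes of a list. On the MCD diet arrays these were Gpnmb among macrophage markers (log2 9.99 and 9.47) and Dcn among stellate cell markers (10.45 and 10.37). The median difference, which weighs genes alike, was 1.20 over the 11 macrophage markers, with 2 below 0 (Clec4f and Timd4). It was 1.07 over the 10 stellate cell and myofibroblast markers, with 0 below 0. Neutrophil and lymphocyte markers gave 0 calls among 7 each, with sums of 29.9 to 31.3 against 35.6 to 50.1 for the former and of 49.9 to 50.7 against 47.3 to 53.0 for the latter. Differences below 0 were found for 0 of the 7 neutrophil and 5 of the 7 lymphocyte markers. Only 0 and 1 of them were brighter than the median gene, so the lack of calls says little. The part of these marker signals in the lower subunit signals was not tested. In whole liver, fewer cells of a type and less RNA per cell cannot be told apart.

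The complexes were ordered by the median over their members. The median difference was -0.43 in complex II, -0.34 in complex III, -0.30 in complex I, -0.22 in complex V and -0.13 in complex IV. Members below 0 were 4 of 4, 8 of 8, 36 of 42, 14 of 18 and 12 of 15 in the same order. The groups' arrays did not overlap, with the MCD diet lower, for 4 of 4, 7 of 8, 32 of 42, 10 of 18 and 6 of 15. This held for 29.2% of all genes and 31.5% of the brightest 25%, and the share in complex IV (40.0%) was the nearest to these. The order of the complexes is a description without a test, since subunits of a complex are not replicates. Of the alternative settings, 12 moved the median of any complex. Complex II was lowest in these 12, of which 6 moved its own median, and complex IV was highest in 11. The exception was the fit without MCD diet replicate 1, where the median of complex IV was -0.30 and that of complex V -0.22. The place of complex IV also depends on which members are counted: its 8 common subunits had a median of -0.25 (7 below 0) and its 6 isoforms of other tissues one of -0.12 (4 below 0).

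**Figure D2:**
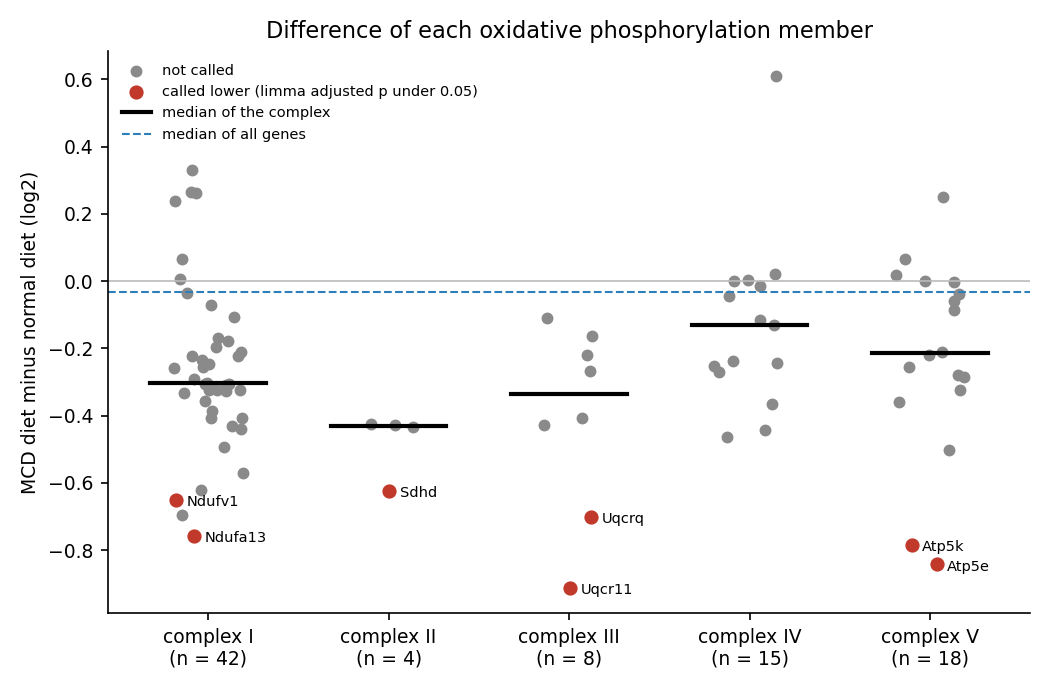
Log2 difference (MCD diet minus normal diet) of every member by complex, with called members in red and named, the median of each complex as a black bar and the median of all genes as a dashed line (-0.03). The 7 called members lie at the lower end of complexes I, II, III and V, and complex IV holds 0.

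**Figure D3:**
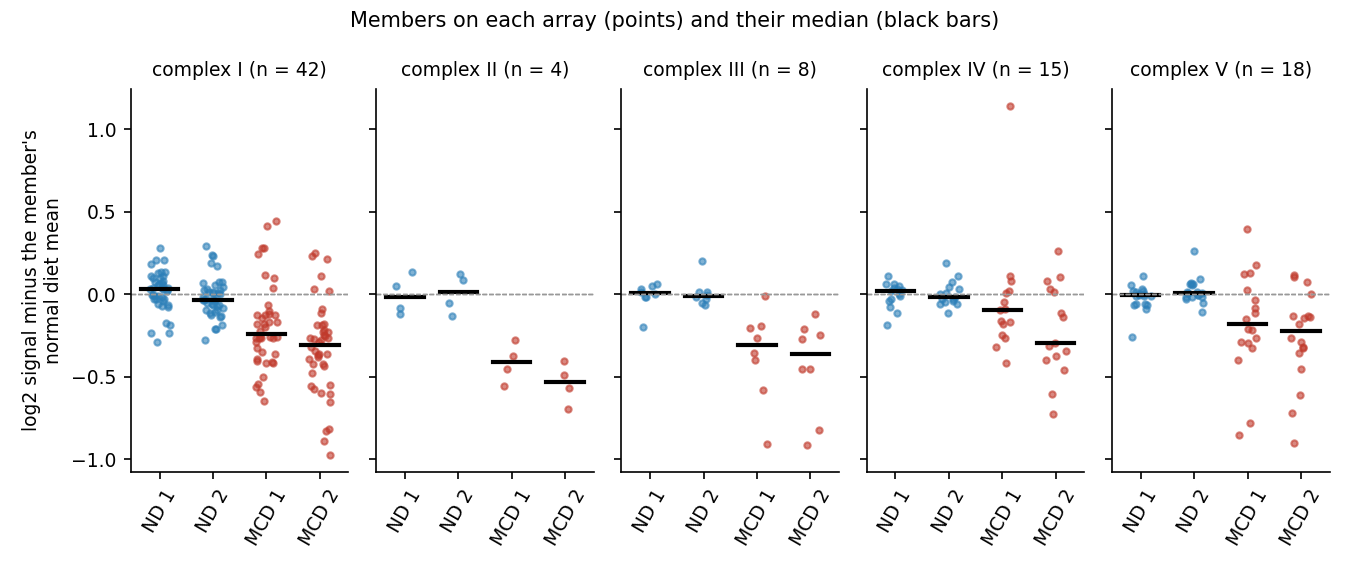
Log2 signal of each member minus its own normal diet mean on the normal diet arrays (ND 1 and ND 2, blue) and the MCD diet arrays (MCD 1 and MCD 2, red), with the median over members as black bars. In complexes I to III and V both MCD diet medians lie clearly below 0, and in complex IV they stand apart from each other, at -0.10 and -0.30.

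Complex I, the largest complex, had 2 members called lower, 1 in the matrix arm and 1 in the membrane arm. Ndufv1, the flavoprotein that takes electrons from NADH, had signals of 7.88 and 7.90 in normal diet livers and 7.24 on both MCD diet arrays. Both groups were tight and far apart. Ndufv1 fell by 0.65 ± 0.12 (1.57-fold lower; limma adjusted p = 0.0224), and with 1 array left out it differed by -0.66 to -0.64 and was not called (limma adjusted p from 0.0796 to 0.106). Ndufa13, a membrane-arm accessory subunit also known as GRIM-19, had 7.28 and 7.31 against 6.76 and 6.32. It was lowest on MCD diet replicate 2, and it fell by 0.76 ± 0.17 (1.69-fold lower; limma adjusted p = 0.0451). The call of Ndufa13 was lost under median centring (limma adjusted p = 0.0582), and its difference was -0.54 without MCD diet replicate 2 (limma adjusted p = 0.12) and -0.97 without MCD diet replicate 1 (limma adjusted p = 0.0355).

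All 6 core subunits of the matrix arm that were measured had both MCD diet arrays below both normal diet arrays, as did 29.2% of all genes. Beside Ndufv1 these were Ndufs8 (-0.36 ± 0.18) and Ndufs7 (-0.31 ± 0.12), which carry iron-sulfur clusters near the ubiquinone site, Ndufs3 (-0.20 ± 0.12), Ndufs1 (-0.18 ± 0.12) and the NADH-module protein Ndufv2 (-0.17 ± 0.13), with 0 calls among these 5. Ndufs8 rested on MCD diet replicate 2, at 6.94 against 7.42 on the other MCD diet array and 7.52 and 7.55 on the normal diet arrays. Of the 26 accessory subunits 23 lay below 0, with a median of -0.31. The next lowest after Ndufa13 were Ndufa11 (-0.70 ± 0.17; limma adjusted p = 0.0583) and Ndufb10 (-0.57 ± 0.14; limma adjusted p = 0.0589), both just short of the threshold. Ndufa11 had 6.84 and 7.19 against 6.45 and 6.19, and Ndufb10 had 5.57 and 5.30 against 4.84 and 4.88. The groups did not overlap for either gene, and both were called under quantile normalization and without the dimmest 50% of genes. With the mean of its 2 rows, Ndufa11 differed by -0.34 (limma adjusted p = 0.413), and without normal diet replicate 2 by -0.52 (limma adjusted p = 0.225).

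A few complex I members ran the other way without a call. Ndufa8, a disulfide-bonded subunit facing the intermembrane space, had 8.06 and 7.80 against 8.34 and 8.04, a difference of 0.26 ± 0.16 with overlapping groups. Ndufs5 differed by 0.24 ± 0.13, but its row was dim (2.62 to 2.96), and a brighter row shared with its pseudogene differed by -0.56. The 8 genes named Ndufaf encode assembly factors, which are not part of the finished complex. They were mixed, with 5 below 0, a median of -0.17 and a range from -0.62 (Ndufaf3, ± 0.19; limma adjusted p = 0.112) to 0.33 (Ndufaf7, ± 0.21). Ndufa4, long listed with complex I and now counted with complex IV, differed by -0.23 ± 0.12, and its paralog Ndufa4l2, known as a hypoxia-responsive gene, by -0.39 ± 0.14 at a dim signal (2.56 to 3.13).

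Complex II, succinate dehydrogenase, is also an enzyme of the tricarboxylic acid cycle. Its differences spanned the narrowest range of the complexes (-0.62 to -0.42), but it has the fewest members, 4, all of them bright. Sdhd, a membrane anchor, had 8.58 and 8.48 in normal diet livers and 7.97 and 7.84 in MCD diet livers. The groups were separated by more than the spread within either, and Sdhd fell by 0.62 ± 0.13 (1.54-fold lower; limma adjusted p = 0.0326). With 1 array left out it differed by -0.69 to -0.56 and was not called (limma adjusted p from 0.0886 to 0.132). The other 3 genes lay close together. Sdhc, the partner anchor, had 7.98 and 7.71 against 7.47 and 7.35 (-0.43 ± 0.14; limma adjusted p = 0.128). Sdha, the flavoprotein that oxidises succinate, had 9.60 and 9.84 against 9.26 and 9.31 (-0.43 ± 0.14; limma adjusted p = 0.116). Sdhb, the iron-sulfur protein, had 7.66 and 7.83 against 7.47 and 7.17 (-0.42 ± 0.15; limma adjusted p = 0.154). For each of these 3 genes the diets' arrays did not overlap, with the MCD diet lower as for 29.2% of all genes, and 0 of the 3 passed.

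Complex III gave the member with the firmest call. Uqcr11, one of the smallest subunits, had 6.00 and 6.03 in normal diet livers and 5.11 and 5.10 in MCD diet livers. The arrays of each diet almost coincided. Uqcr11 fell by 0.91 ± 0.12 (1.88-fold lower; limma adjusted p = 0.00732), the lowest value among all members, and it stayed called under 12 of 13 alternatives (limma adjusted p from 0.00518 to 0.0433). The exception was the rule that asks for a 2-fold change. Uqcrq, a small subunit next to cytochrome b, had 5.27 and 5.21 against 4.66 and 4.42 and fell by 0.70 ± 0.14 (1.63-fold lower; limma adjusted p = 0.029). With 1 array left out it differed by -0.82 to -0.58 and was not called (limma adjusted p from 0.0557 to 0.112).

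The Rieske protein and the core proteins of complex III differed by less, without a call. Uqcrc1, a core protein, had 8.80 and 8.67 against 8.34 and 8.28 (-0.43 ± 0.12; limma adjusted p = 0.0893). Uqcrfs1, the Rieske iron-sulfur protein that takes electrons from ubiquinol, had 5.40 and 5.30 against 4.99 and 4.90 (-0.41 ± 0.12; limma adjusted p = 0.103), and it was called under quantile normalization. For both genes the groups were separate but short of a call. Uqcrc2 (-0.16 ± 0.12), Uqcrb (-0.22 ± 0.12) and the hinge protein Uqcrh (-0.27 ± 0.12) also had separate groups. The pseudogene Uqcrh-ps1 was dim (1.24 to 1.65) and overlapped.

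**Figure D4:**
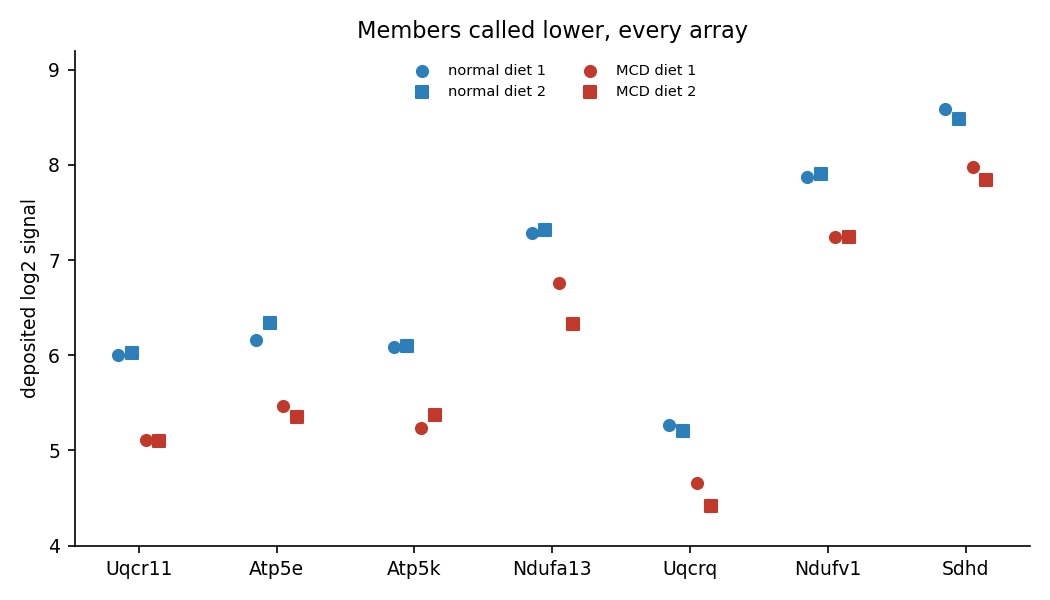
Deposited log2 signal of the 7 called members on each array, normal diet in blue and MCD diet in red, ordered by difference. Both red points lie below both blue points for each gene, most tightly for Uqcr11 (6.00 and 6.03 against 5.11 and 5.10) and Ndufv1, while Ndufa13 is spread between its MCD diet arrays. Heights of different genes are not comparable, since each row has its own probes.

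Complex IV, cytochrome c oxidase, had 0 calls among 15 members (2 had an unadjusted p under 0.05 in limma, both lower). Its lowest values were those of Cox5a (7.73 and 7.88 against 7.49 and 7.20; -0.46 ± 0.15; limma adjusted p = 0.121) and Cox7b (7.24 and 7.14 against 7.03 and 6.47; -0.44 ± 0.20). Cox5a and Cox5b (-0.27 ± 0.13) are structural subunits around the catalytic core, which mitochondrial DNA encodes. Cox7b was low mainly on MCD diet replicate 2. Against these stood bright subunits that hardly differed. Cox6a1 had 10.84 and 10.78 against 10.82 and 10.84 (0.02 ± 0.12), and Cox8a had 9.40 and 9.32 against 9.38 and 9.25 (-0.05 ± 0.12), a sign that turned under quantile normalization. In both, the groups overlapped. Cox6b1 (-0.24 ± 0.15, separate groups) and Cox7a2 (-0.25 ± 0.17, overlapping groups) lay between, Cox7c differed by less than 0.01 (± 0.20), and the supercomplex assembly factor Cox7a2l differed by -0.01 ± 0.14.

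Several complex IV subunits have isoforms of other tissues. All but Cox6a2 were dimmer than the median gene by mean signal, and Cox6a2 lay close to it (percentile 51.7). Cox6a2, the heart and muscle form of subunit VIa, had 2.62 and 2.995 in normal diet livers and 3.95 and 2.89 in MCD diet livers. The high value stood on MCD diet replicate 1 alone, and the difference of 0.61 ± 0.34 did not pass (limma adjusted p = 0.353). Without MCD diet replicate 2 it was 1.14 (limma adjusted p = 0.0435). Of 12 striated muscle markers 0 were called, and their summed linear signal was 63.0 on MCD diet replicate 1 and 66.2 on MCD diet replicate 2, against 70.5 and 78.4 on the normal diet arrays. Only 2 of these 12 markers were brighter than the median gene, and the part of muscle tissue in the Cox6a2 value was not tested. The muscle forms Cox7a1 (-0.24 ± 0.12) and Cox8b (-0.12 ± 0.14), and Cox6b2 (0.00 ± 0.13), Cox7b2 (-0.13 ± 0.18) and Cox8c (-0.37 ± 0.12), known from testis, gave no call. Of 7 fat markers only Fabp4, which macrophages also express, was called, rising by 1.63 ± 0.15. The brown fat gene Ucp1 differed by 0.01 ± 0.12. The median of the 7 was 0.01, with 3 below 0. Their sums, 61.9 and 63.9 against 114.5 and 130.0, follow Fabp4, the brightest of them (log2 4.87 and 4.75 against 6.58 and 6.29).

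ATP synthase had 2 of 18 members called lower, both small subunits, and 0 called among its catalytic pair. Atp5e, the epsilon subunit of the central stalk, had 6.16 and 6.34 in normal diet livers and 5.47 and 5.35 in MCD diet livers. The groups were well apart, and Atp5e fell by 0.84 ± 0.13 (1.79-fold lower; limma adjusted p = 0.0145). A second, dimmer row of Atp5e differed by -0.15, and with the mean of both rows the gene differed by -0.50 and lost its call (limma adjusted p = 0.0793). Atp5k, the e subunit at the dimer interface, had 6.08 and 6.10 against 5.24 and 5.37 and fell by 0.79 ± 0.12 (1.72-fold lower; limma adjusted p = 0.0143). With 1 array left out, Atp5e was called without normal diet replicate 1 alone (limma adjusted p from 0.0384 to 0.0761 over the 4 fits) and Atp5k without MCD diet replicate 2 alone (0.0406 to 0.0752). The value of Atp5k is uncertain, since 4 named pseudogenes of Atp5k may share its probes. Atp5l, the g subunit beside it, had 8.17 and 8.18 against 7.78 and 7.56 (-0.50 ± 0.13; limma adjusted p = 0.069), and it has 2 named pseudogenes.

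Of the catalytic pair, Atp5b, the beta subunit that holds the active site, had 10.60 and 10.63 against 10.74 and 10.62, a difference of 0.07 ± 0.12 with overlapping groups. Atp5a1, the alpha subunit, had 9.67 and 9.64 against 9.45 and 9.30 (-0.28 ± 0.12; limma adjusted p = 0.233), with separate groups. The 3 genes Atp5g1, Atp5g2 and Atp5g3 encode the same mature c subunit of the proton-carrying ring, and they went different ways. Atp5g3 had 7.51 and 7.63 against 7.24 and 7.24 (-0.32 ± 0.12), and Atp5g2 had 9.03 and 8.93 against 9.38 and 9.08 (0.25 ± 0.15). Atp5g1 was dim and differed by 0.02 ± 0.13, with a sign that turned under quantile normalization. No c subunit gene was called, and the difference between them was not tested. Atp5d, at 0.00 ± 0.16 on the row used, differed by -0.67 on its other row, where MCD diet replicate 2 was at 4.85 against 5.79 on the other MCD diet array. The other members lay between -0.36 (Atp5o, which joins the stalk to the head) and 0.00 (Atp5h, in the peripheral stalk).

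Some subunits were represented by rows naming several genes and stand outside the 87. These rows differed by -0.46 (Ndufb2 with Adck2), -0.32 (Uqcr10 with a predicted gene), -0.24 (Ndufb4 with its copies), -0.30 for the brighter row of Ndufs6 with its copy, and -0.11 for the brighter row of Cox6c with a predicted gene. The dimmer rows of Ndufs6 (0.02) and Cox6c (0.11), a row shared by Uqcrb (0.02) and one shared by Ndufs1 (0.13) lay above 0. RefSeq names pseudogenes of 10 members (Atp5c1, Atp5k, Atp5l, Atp5pb, Cox5b, Cox7c, Ndufa12, Ndufab1, Ndufs5 and Uqcrh), whose values are uncertain because near-identical copies may share probes. Of the 9 members with more than 1 row, Cox5b, Cox7b and Ndufa11 had a dim second row with a positive difference (0.22, 0.24 and 0.02).

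Further components and partners of the chain were compared by lists. The complex IV subunit Cox4i1 (8.44 and 8.30 against 7.97 and 7.97; -0.40 ± 0.12; limma adjusted p = 0.109), the complex III cytochrome Cyc1 (-0.43 ± 0.15) and cytochrome c, Cycs (-0.21 ± 0.12), had values like those of the members, without a call. The hypoxia-linked Cox4i2 (0.22 ± 0.15) and the testis cytochrome c, Cyct (-0.33 ± 0.18), were dim. Genes of mitochondrial DNA were on this list by symbol, but none was among the 5 of 21 listed genes that were found and measured. The inhibitor of ATP synthase Atpif1, which blocks its reverse, ATP-consuming action, went against the subunits. It had 6.68 and 6.58 in normal diet livers and 7.66 and 7.69 in MCD diet livers and rose by 1.04 ± 0.12 (2.06-fold; limma adjusted p = 0.00531). Fmc1, which helps to assemble ATP synthase, fell by 0.56 ± 0.12.

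Few assembly factors were called. The medians were -0.10 over 7 factors of complex I, -0.17 over 4 of complex II, -0.09 over 6 of complex III and -0.07 over 20 of complex IV, against -0.03 over all genes. Whether they differ from the subunits was not tested. Sdhaf4, which helps to build complex II, fell by 0.76 ± 0.15, and Higd1a, a hypoxia-induced modulator of complex IV, fell by 0.80 ± 0.12. These were the only calls in these 4 lists. The 71 mitochondrial ribosomal proteins, which translate the subunits encoded in mitochondria, had a median of -0.06 with 39 below 0. Only Mrpl54 among them was called, rising by 0.94 ± 0.21.

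Regulators of mitochondrial biogenesis gave 0 calls among 15, with a median of -0.11. The coactivator Ppargc1a had 6.77 and 5.89 against 6.59 and 6.52, a wide spread within normal diet livers (0.23 ± 0.28). Nrf1, which binds many subunit promoters, differed by 0.23 ± 0.13, the ETS factor Gabpa by -0.25 ± 0.12 and the mitochondrial transcription factor Tfam by -0.28 ± 0.12. In the tricarboxylic acid cycle Fh1 fell by 0.76 ± 0.13 and Suclg1 by 0.55 ± 0.12, Mdh2 rose by 0.70 ± 0.14, and Cs differed by 0.22 ± 0.15. The 12 measured enzymes had a median of -0.07. Among 8 other enzymes that pass electrons to ubiquinone, proline dehydrogenase Prodh and sulfide oxidase Sqor fell by 0.80 ± 0.13 and 0.57 ± 0.13, and the glycerol-3-phosphate dehydrogenase Gpd2 rose by 0.80 ± 0.14. In the ubiquinone list (11 measured, median -0.27) both calls were binding proteins rather than enzymes of synthesis: Coq10b fell by 1.27 ± 0.12 and Coq10a by 0.68 ± 0.16. Of 9 carriers and channels the adenine nucleotide translocator Slc25a4, the muscle form, rose by 1.12 ± 0.13 from a low signal (3.07 and 3.20 against 4.32 and 4.18), while Slc25a5 differed by 0.21 ± 0.12.

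**Figure D5:**
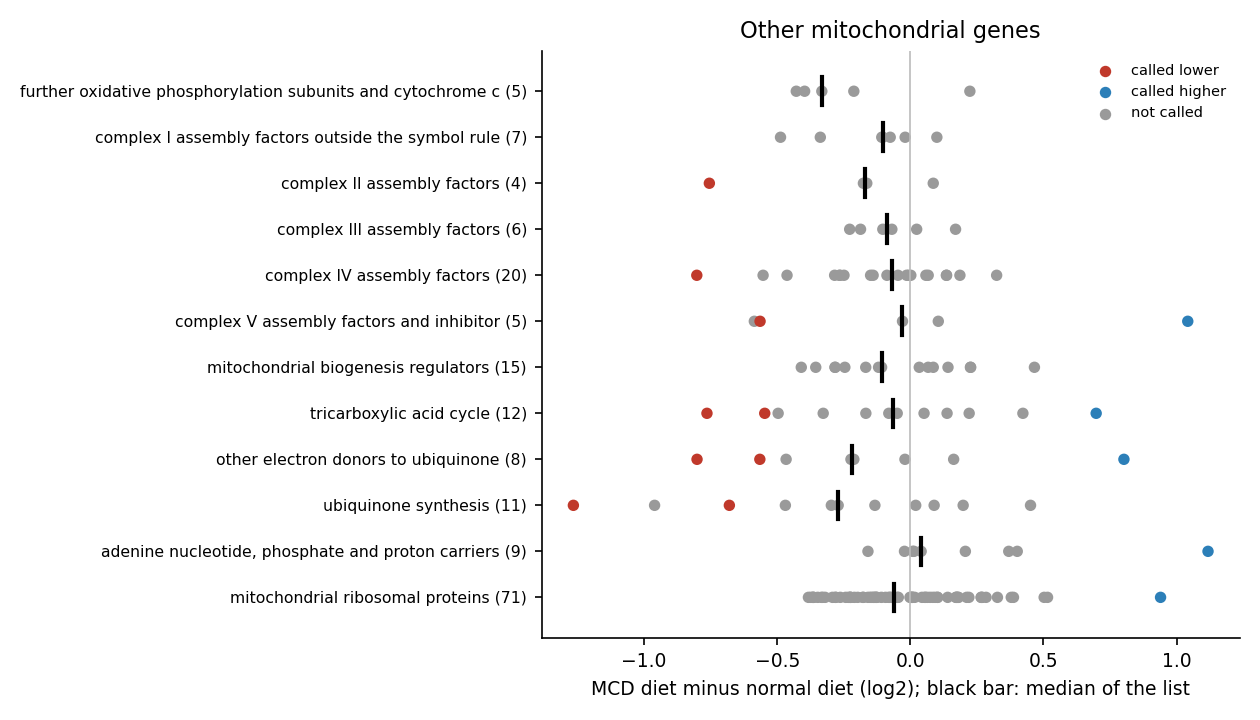
Log2 difference (MCD diet minus normal diet) of single genes in 12 lists of mitochondrial genes, with the number measured in brackets, calls in colour and the median of each list as a black bar. The blue points at the right of the ATP synthase and carrier lists are Atpif1 (1.04) and Slc25a4 (1.12). The median of the further subunits and cytochrome c lies lowest (-0.33), but it covers 5 genes and is the value of the dim Cyct.

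Since most members had differences of the same sign, their promoters were searched for motifs of factors known for these genes. RefSeq (GRCm38.p6) gave a window from 250 bases before to 50 after the start for 72 of the 87 members, and for 16918 genes tested. All motifs were searched on both strands. The NRF1 motif, shown in capitals for Sdhd and Atp5k further on and free at the 1 base where these differ, was present in 17 of 72 members (23.6%) and in 7.3% of all these genes. Its strict, palindromic form, as in Atp5k, was in 9.7% against 1.5%. The looser form GCNTGCGC, which every match of this motif also matches, was in 31.9% against 14.8%. The YY1 motif AANATGGCG was in 13.9% against 3.7%, and a longer YY1 form, each match of which also holds the shorter one, in 5.6% against 1.1%. The ETS motif CCGGAAGT was in 6.9% against 5.6%, the SP1 motif GGGCGG in 47.2% against 49.6% and the CREB motif TGACGTCA in 4.2% against 2.6%. The members with the NRF1 motif (looser form aside) had a median difference of -0.26, and the 55 without it -0.27. For the strict form the medians were -0.03 over 7 members and -0.27 over 65, with Atp5k (-0.79) among the 7. A match is only a description of the letters in the window.

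Of the 6 called members with a window, 2 (Sdhd and Atp5k) held the NRF1 motif (7.3% of all genes) and 1 (Uqcr11) the ETS motif (5.6%). The looser NRF1 form was in 3 (Atp5k, Sdhd and Uqcr11; 14.8% of all genes). The SP1 motif was also in 3 (Atp5e, Ndufa13 and Sdhd; 49.6%), and the YY1 and CREB motifs were in 0. Only the NRF1 motif of Sdhd and Atp5k and the ETS motif of Uqcr11 are printed, to show where each lies in a member that fell. The stretches of 100 bases before the gene start that hold them are given 5′ to 3′ on the gene's strand, with the motif in capitals. They are at chr9:50603874-50603973 (Sdhd), chr5:108434400-108434499 (Atp5k) and chr10:80406833-80406932 (Uqcr11), all on the minus strand of GRCm38.p6. The motif starts 79, 50 and 66 bases before the gene start, in the same order. The Atp5k stretch ends at the gene start, while the stretches of Sdhd and Uqcr11 end upstream of it.
Sdhd: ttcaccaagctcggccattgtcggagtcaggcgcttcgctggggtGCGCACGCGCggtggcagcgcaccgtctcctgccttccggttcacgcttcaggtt
Atp5k: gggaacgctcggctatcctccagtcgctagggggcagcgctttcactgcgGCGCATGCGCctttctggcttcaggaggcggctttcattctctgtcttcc
Uqcr11: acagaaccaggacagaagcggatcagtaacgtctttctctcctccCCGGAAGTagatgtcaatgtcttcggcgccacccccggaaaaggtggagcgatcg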

How the data were processed

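The authors deposited 1 log2 signal per transcript row and array. Per the submitters' processing notes they used Transcriptome Analysis Console, whose version and settings (background correction, normalization) are not stated in the labels, and log2 was inferred from the values (highest 12.1 on every array). Groups came from the sample titles, and the number of unused columns was 0. Of 34472 rows, 23521 named exactly 1 gene in the platform annotation, and the row with the highest mean over the 4 arrays was used for each of 22180 genes. MCD diet and normal diet were compared on all 4 arrays with limma 3.58.1 in R 4.3.3 (two-sided, empirical Bayes, 6.06 total degrees of freedom). Values were tested as deposited, without a filter, and Benjamini-Hochberg adjustment ran over all genes, never over the members. The fit was tested on simulated data. The members and lists were chosen with earlier results of these data known. By rule any member could be named, with full values for called members, the 3 largest differences of each complex, catalytic cores and isoform sets, and of each further list up to 3 called genes beside a fixed few. Cyct, Slc25a5, Alb, Ucp1, Ass1 and Pck1, and the full values of Ndufa8 and Ndufs5, were added after their values were seen. Alternatives were other scalings, filters on dim genes, an intensity trend, other uses of rows, another call rule, other member definitions, a replicate block and leaving out each array.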

Additional observations from a re-analysis of the deposited data

How the results depend on the processing

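With the rule of an unadjusted limma p under 0.05 and at least 2-fold change, 1155 genes and 0 members were called. Under quantile normalization 11 members were called lower. Leaving out 1 array gave 1050 to 1493 called genes, 1 to 3 members called lower and 0 to 1 called higher. In the same fits the median of complex I ranged from -0.31 to -0.24, that of complex II from -0.53 to -0.41, of complex III from -0.36 to -0.31, of complex IV from -0.30 to -0.10 and of complex V from -0.25 to -0.18. The median of complex III was -0.30 under median centring and -0.41 without the dimmest 25% or 50% of genes or with structural subunits only, settings that drop its dim pseudogene. The median of complex V was -0.18 under quantile normalization and under median centring. Of the 87 members, 5 turned sign under median centring, 7 under quantile normalization, 1 with the mean of rows and 6 to 9 with 1 array left out, none of them called. Among those described, Atp5g1 was at -0.021 and Cox8a at 0.047 under quantile normalization, and Cox7a2l at 0.025 under median centring. With 1 array left out, Atp5g1 ranged from -0.080 to 0.12, Cox6a1 from -0.0078 to 0.049, Cox6b2 from -0.10 to 0.11, Cox7a2l from -0.14 to 0.11, Cox7b2 from -0.34 to 0.082, Cox8a from -0.11 to 0.020 and Cox8b from -0.25 to 0.016. The cause was not tested. Of the called members, Ndufv1, Sdhd and Uqcrq lost their calls in all 4 fits that left out an array, and Atp5e, Atp5k and Ndufa13 each in 3 of the 4. In each such fit the lone sample is assumed to vary like the other diet. With a replicate block 1950 genes and 6 members were called, Ndufa13 losing its call. Same-numbered arrays hardly deviated together (correlation 0.0537 across genes). With 2 arrays per diet, this correlation cannot show whether same-numbered arrays share a batch. No detection values were analysed here, so the values of dim rows are uncertain.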
